A study of Mus musculus with 12 samples.

Results

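Acetylated stretches of the mouse embryonic stem cell (ESC) genome that hold several binding sites of the transcription factor KLF4 are described here. The ESC genome was listed by the authors in bins of 10 kb, and a bin was taken as a member when it had a value for acetylation of histone H3 at lysine 27 (H3K27ac) both at 0 h and at 24 h and overlapped 2 or more KLF4 peaks of induced pluripotent stem cells (iPSCs). Bins carrying a mark in column 6 or column 9 of either ESC list were left out. The rule found 1897 members among 54825 listed bins, or 8.34% of the 22739 bins valued at both times. Of the members, 1519 held 2 KLF4 peaks, 302 held 3, 62 held 4 and 14 held 5 or more. The members were thus chosen by measured values, namely the presence of H3K27ac at both times and the number of KLF4 peaks, and those quantities are given as description. The members are compared with the 6404 bins that met the same criteria with 1 KLF4 peak (1-peak bins) and the 13692 that met them with no KLF4 peak (KLF4-free bins).

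KLF4 is a zinc-finger protein of the Krüppel-like family that binds GC-rich DNA through a GGGNGTGG-type core, and it was among the factors first used to turn somatic cells into iPSCs. In naive mouse pluripotent cells it acts beside its relatives KLF2 and KLF5, and enhancers of pluripotency genes often carry it together with OCT4, SOX2 and ESRRB. H3K27ac is laid down by the acetyltransferases p300 and CBP, and it marks active enhancers and promoters.

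The series held 12 chromatin immunoprecipitation sequencing (ChIP-seq) samples in 7 groups, each ChIP group with 2 biological replicates. The ESCs were clonal lines of V6.5, grown on irradiated feeder cells and labelled as 2i cultures (with MEK and GSK3 inhibitors). Every ESC sample carried a lentiviral, doxycycline-inducible Cas9-GFP with guide RNAs; the labels name guides for Klf4 by itself and for a set of Klf2, Klf4 and Klf5, and do not settle which of them these samples carried. Samples labelled 0 h had not been induced and are the unedited state, and samples labelled 24 h had received doxycycline for 24 h. The titles of both carry TKO, with WT at 0 h and KLF4 KO at 24 h. By its labels, 24 h over 0 h thus sets a knockout against the unedited state. Doxycycline and the induction of Cas9 differ between the same samples, so they cannot be told apart from the knockout. KLF4 binding was measured only in the iPSCs, which were also labelled as 2i cultures and also profiled for H3K27ac, so the KLF4 peaks of a bin are those of another cell line.

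The deposit held 1 list per ChIP group, so the spread between replicates could not be computed, sequencing depth is unknown, and no test between the times was possible. Intervals in brackets are 95% exact (Clopper-Pearson) binomial intervals and cover counting error only. Neighbouring bins can share a value, so bins are not independent. All 6 pluripotency marker genes looked up (Pou5f1, Sox2, Nanog, Esrrb, Zfp42 and Sall4) had a valued bin at both times, with highest values of 8.33 to 29.7 at 0 h. Of 7 feeder fibroblast marker genes, 1 did (Col1a1, 3.14 at 0 h and 2.30 at 24 h). A longer list of 18 fibroblast genes, which feeder and other cells express, had 7 genes with an unmarked bin valued at both times (15 bins), among them Fn1 and Vim.

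Promoter sequences of member bins are shown first, since a KLF4 peak lay over many of them. The 8 stretches that follow are the 250 bases before a RefSeq transcription start in GRCm38.p6, each start lying in a member bin and its promoter under an iPSC KLF4 peak. They were picked after the values were seen, to show list genes and bins with lower, near-average and higher H3K27ac at 24 h. Each is printed 5′ to 3′ on the strand of its gene, and capitals mark the KLF core GGGNGTGG, which reads CCACNCCC when it lies on the other strand. All but the Klf4 stretch hold this core, so the 8 do not stand for the rest. It was present in 33.3% of the 911 member promoters under a KLF4 peak, taken as 300 bases around the start. The first 4 belong to regulators: Tfcp2l1 (chr1:118627695-118627944, + strand), a naive pluripotency factor, Klf13 (chr7:63938916-63939165, - strand), a relative of Klf4, Tcf7l1 (chr6:72789046-72789295, - strand), a repressor in Wnt signalling, and Dnmt3l (chr10:78049592-78049841, + strand), a cofactor of the de novo DNA methyltransferases.

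Tfcp2l1: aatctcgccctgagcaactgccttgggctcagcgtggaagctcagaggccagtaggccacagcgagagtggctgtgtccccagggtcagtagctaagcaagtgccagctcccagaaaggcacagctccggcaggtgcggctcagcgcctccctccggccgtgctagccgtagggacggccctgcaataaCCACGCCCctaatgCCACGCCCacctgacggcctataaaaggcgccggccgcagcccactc
Klf13: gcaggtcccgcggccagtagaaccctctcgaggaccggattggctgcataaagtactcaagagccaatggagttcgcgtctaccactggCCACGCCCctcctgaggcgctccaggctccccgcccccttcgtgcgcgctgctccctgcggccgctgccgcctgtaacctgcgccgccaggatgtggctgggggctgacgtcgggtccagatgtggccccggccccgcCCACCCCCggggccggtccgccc
Tcf7l1: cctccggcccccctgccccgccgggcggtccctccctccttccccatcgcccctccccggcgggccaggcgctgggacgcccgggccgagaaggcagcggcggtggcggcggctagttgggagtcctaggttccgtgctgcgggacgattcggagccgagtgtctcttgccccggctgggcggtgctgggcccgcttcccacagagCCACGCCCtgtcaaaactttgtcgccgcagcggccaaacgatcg
Dnmt3l: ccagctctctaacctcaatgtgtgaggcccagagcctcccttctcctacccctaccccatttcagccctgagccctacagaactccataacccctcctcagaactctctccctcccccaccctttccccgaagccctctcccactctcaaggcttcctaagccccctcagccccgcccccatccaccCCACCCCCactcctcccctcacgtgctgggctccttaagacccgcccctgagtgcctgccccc

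Tfcp2l1 holds 2 whole cores, which begin 61 and 47 bases before the start. The cores of Klf13 begin 161 and 23 bases before it, the core of Tcf7l1 44 and the whole core of Dnmt3l 63. Another core of Dnmt3l begins 2 bases before the start and runs past the printed window, so it is not in capitals. The next 4 are Eif2b5 (chr16:20498567-20498816, + strand), a subunit of translation initiation factor eIF2B, Pdgfa (chr5:138994945-138995194, - strand), a growth factor, Vim (chr2:13574061-13574310, + strand), the intermediate filament vimentin, and Klf4 itself (chr4:55532476-55532725, - strand).

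Eif2b5: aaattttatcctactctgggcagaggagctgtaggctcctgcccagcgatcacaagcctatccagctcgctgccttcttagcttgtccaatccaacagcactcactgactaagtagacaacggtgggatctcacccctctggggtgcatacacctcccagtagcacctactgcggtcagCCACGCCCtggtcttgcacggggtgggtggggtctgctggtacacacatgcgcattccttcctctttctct
Pdgfa: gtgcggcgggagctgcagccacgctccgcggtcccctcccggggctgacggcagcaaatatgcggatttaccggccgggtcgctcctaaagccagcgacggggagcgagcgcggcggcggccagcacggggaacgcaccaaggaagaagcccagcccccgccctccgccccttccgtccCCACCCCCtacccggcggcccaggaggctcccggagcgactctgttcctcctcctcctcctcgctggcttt
Vim: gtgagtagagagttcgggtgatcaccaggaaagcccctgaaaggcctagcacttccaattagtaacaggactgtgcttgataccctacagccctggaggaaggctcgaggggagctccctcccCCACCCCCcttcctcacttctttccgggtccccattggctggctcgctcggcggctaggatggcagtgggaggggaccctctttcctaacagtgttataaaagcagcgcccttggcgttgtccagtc
Klf4: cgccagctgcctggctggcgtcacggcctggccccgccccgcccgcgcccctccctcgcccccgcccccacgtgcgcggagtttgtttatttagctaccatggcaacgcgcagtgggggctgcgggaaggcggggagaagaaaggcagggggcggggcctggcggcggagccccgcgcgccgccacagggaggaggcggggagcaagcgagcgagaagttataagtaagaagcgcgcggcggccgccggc

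The core begins 71 bases before the start at both Eif2b5 and Pdgfa, and 127 bases before it at Vim. Klf4 holds no such core in this window and 4 GC boxes (GGGCGG on either strand). A match is a run of letters and not a measured contact, and no match says only that these letters are not in this window.

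Members carried more H3K27ac at 0 h than 1-peak and KLF4-free bins. They carried less than the 258 bins with several KLF4 peaks left out for a mark (median 10.3). The deposited value, in the authors' signal units, had a median of 6.19 in members (quartiles 4.63 and 7.98), against 5.44 in 1-peak bins, 4.38 in KLF4-free bins and 4.90 in all bins valued at both times. At 24 h the medians were 4.81, 4.36, 3.99 and 4.21. Members ranged from 1.93 to 19.4 at 0 h and from 1.58 to 15.3 at 24 h. Just inside the rule, bins with 2 peaks had medians of 6.05 at 0 h and 4.65 at 24 h, and just outside it, bins with 1 peak had 5.44 and 4.36. Bins with 3 peaks had 6.80 at 0 h and bins with 4 had 6.90.

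Because the scaling between the times is unknown, each change was taken as the log2 ratio of the 24 h over the 0 h value less the median over all 22739 bins with both values. That median ratio was 0.854 (-0.23 in log2) and stands as 0 on the relative log2 scale. Members had a median of -0.11 (quartiles -0.30 and 0.04), 1-peak bins -0.07 and KLF4-free bins 0.06. Values under the general median were found in 1292 members (68.1%), in 60.5% of 1-peak bins and in 41.2% of KLF4-free bins. A relative value below -0.5 was found in 228 members (12.02%, 10.6 to 13.6), where 7.74% of all bins had one, 11.7% (10.9 to 12.5) of 1-peak bins and 5.14% (4.78 to 5.52) of KLF4-free bins. A relative value above 0.5 was found in 37 members (1.95%, 1.38 to 2.68), where 7.25% of all bins had one, 3.65% (3.21 to 4.14) of 1-peak bins and 9.97% (9.47 to 10.5) of KLF4-free bins. The intervals of members and 1-peak bins overlapped for the share below -0.5, and did not for the share above 0.5, which was lower in members than in 1-peak and KLF4-free bins. The share above 0.5 was not computed at like 0 h value, and members had the higher 0 h median. With the values as deposited, 28.1% of members were below -0.5 and 0.685% above 0.5. With 0 set at the median of KLF4-free bins, the shares were 14.5% and 1.27%.

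**Figure D1:**
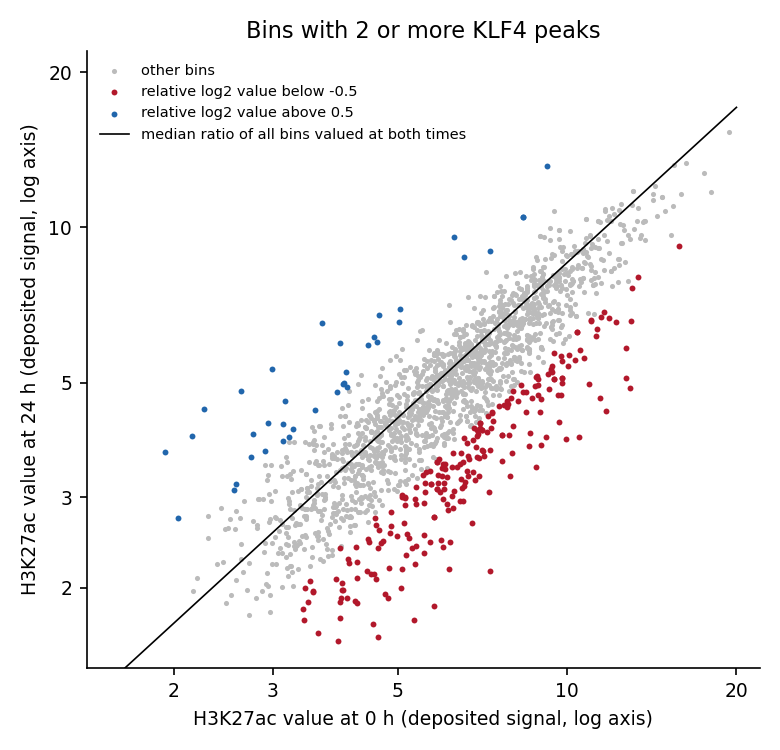
H3K27ac value at 0 h (horizontal axis) and at 24 h (vertical axis) of the 1897 members, 1 point per bin, in the deposited signal units on log axes; the line is the median ratio of 0.854 over all bins with both values. The 228 members with a relative log2 value below -0.5 (red) lie under the line from low to high values, while the 37 above 0.5 (blue) are fewer and lie mostly at low 0 h values.

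The rule keeps only bins valued at 0 h and at 24 h, which removes bins whose value was lost or gained. Among listed bins with several KLF4 peaks, 202 had a value only at 0 h (median 3.86) and 51 only at 24 h (median 3.38), and 211 had none at either time. These counts were not compared with those of bins with fewer KLF4 peaks or of all listed bins. The scaling between the times is also unknown. Whether the larger count at 0 h is particular to bins with several KLF4 peaks was therefore not tested.

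Members lay under KLF4-free bins at every level of H3K27ac, and under 1-peak bins at most levels. All bins valued at both times were cut into 10 groups of equal size by their 0 h value, and the median relative value of members was under that of KLF4-free bins in 10 of 10 groups, by 0.05 to 0.22. It was under that of 1-peak bins in 9 of 10, the exception being the lowest group, with 0.26 in 56 members and 0.24 in 335 1-peak bins. That lowest group, with 0.35 in KLF4-free bins, held 2.95% of members, 5.23% of 1-peak bins and 13.7% of KLF4-free bins. In the highest group the medians were -0.17 in 284 members, -0.16 in 1-peak bins and -0.12 in KLF4-free bins. The share below -0.5 did not follow the medians there: in the 3 highest groups it was 14.0%, 10.8% and 15.8% in members, against 15.9%, 13.9% and 19.5% in 1-peak bins. Grouped by the mean of both log2 values or by the 24 h value, groupings chosen after the data were seen, members were under KLF4-free bins in 10 of 10 groups and under 1-peak bins in 8 and 9. By chromosome, the median of members was under that of KLF4-free bins on 20 of 20 and under that of 1-peak bins on 17 of 20.

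**Figure D2:**
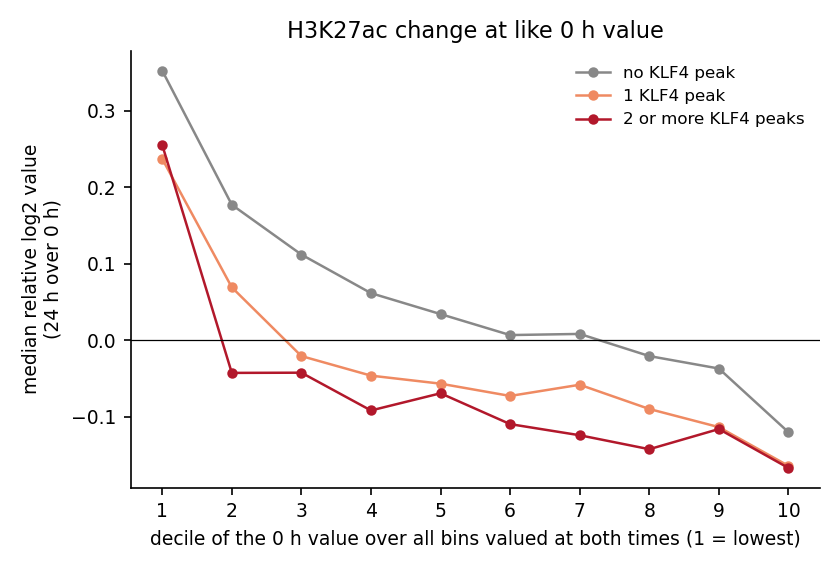
Median relative log2 H3K27ac value (24 h over 0 h, vertical axis) in 10 groups of bins ordered by the 0 h value (horizontal axis), for members, 1-peak bins and KLF4-free bins. Members lie under KLF4-free bins in all 10 groups, while the distance to 1-peak bins is small and turns in the lowest group.

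Fewer members with a gene start than without one had a low relative value, and the same held in 1-peak bins. Starts were taken from the RefSeq promoter table, which gave no starts on chromosome 18 for use here, leaving 1840 members. A start lay in 894 of them (48.6%, 46.3 to 50.9), against 36.4% of 1-peak bins and 19.5% of KLF4-free bins. The median relative value was -0.07 in members with a start and -0.17 in the 946 without one, at near-equal 0 h medians of 6.12 and 6.27. A value below -0.5 was found in 6.49% (4.96 to 8.31) of the members with a start and in 16.9% (14.6 to 19.5) of those without, a difference of 10.4 percentage points. In 1-peak bins the shares were 3.55% (2.83 to 4.40) and 16.5% (15.4 to 17.7), which lie further apart, and in KLF4-free bins 2.79% and 5.74%. Among bins with a start, the intervals of members and 1-peak bins thus did not overlap, while among bins without one they did. The 0 h median of 1-peak bins with a start was 5.41, and these shares were not computed at like 0 h value. In bins with 3 or more KLF4 peaks the difference was 1.13 points (-5.22 to 7.48 by the normal approximation for counting error), so the split seen over all members was not found there.

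Distance to genes gave the same order. Of the 1216 members with a protein-coding gene ending or starting within 2 kb, 8.39% (6.89 to 10.1) were below -0.5. The share was 14.3% (10.0 to 19.6) of 223 members at 2 to 10 kb, 18.5% (14.5 to 23.2) of 329 at 10 to 50 kb and 25.6% (18.3 to 34.0) of 129 members beyond 50 kb. Neighbouring intervals overlapped, while the nearest and the farthest group did not. In 1-peak bins the shares were 6.09%, 16.3%, 17.2% and 22.3%, so the order was not particular to members. In KLF4-free bins they were 3.49%, 5.86%, 6.10% and 7.39%, and there the share above 0.5 went from 6.42% near genes to 13.9% beyond 50 kb. Among members beyond 50 kb, 1 bin (0.775%) was above 0.5.

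**Figure D3:**
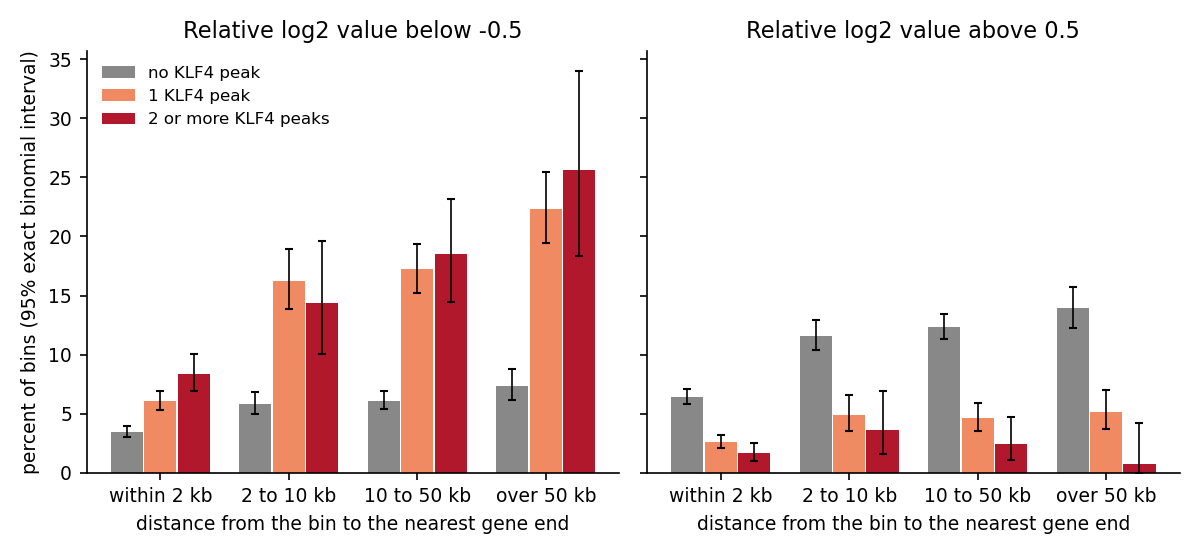
Percent of bins with a relative log2 H3K27ac value below -0.5 and above 0.5, by distance to the nearest end of a protein-coding gene, for members, 1-peak bins and KLF4-free bins, with 95% exact binomial intervals as error bars. The share below -0.5 in members goes from 8.39% to 25.6% with distance, and the share above 0.5 stays under 4% in members at every distance.

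Of the 14 members with 5 or more KLF4 peaks, 12 had a relative value under 0 and 2 above it, with a median of -0.22, 3 below -0.5 and none above 0.5. Of all members 68.1% were under 0, 12.02% below -0.5 and 1.95% above 0.5, and of all bins valued at both times 50.0%, 7.74% and 7.25%. The share of the 14 below -0.5 was 21.4% (4.66 to 50.8), against 9.68% (3.63 to 19.9) of bins with 4 peaks. These intervals overlap, so no stronger fall with more peaks is shown. A bin 16543 bp from the nearest end of Nrf1, a regulator of mitochondrial genes (chromosome 6, 30170001 to 30180000), held 7 peaks and had values of 4.69 at 0 h and 3.50 at 24 h, a relative value of -0.19. The bin at the start of Pdgfa (chromosome 5, 138990001 to 139000000) held 6 peaks, with 7.08 and 6.64 (0.14). The 8 bins with the highest 0 h value among those with 5 peaks came next. Of these, the bin near Krt42, a type I keratin gene (chromosome 11, 100280001 to 100290000), had 5.80 at 0 h and 1.85 at 24 h (-1.42). The bin of Myo1c, an unconventional myosin, had 6.54 and 3.51 (-0.67). The bins of Cnn3 (-0.31), an actin-binding calponin, and Tubb5 (-0.08), a beta-tubulin, were within 0.5 of 0, as were those near Srrm1 (-0.19), 1700001O22Rik (-0.27), Kcnrg (-0.28) and Ywhaz (0.22).

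The lowest relative values reached -1.53. Foxd3, a forkhead factor of pluripotent and neural crest cells, had 3 member bins, and all 3 were below -0.5. Upstream on chromosome 4 at 99630001 to 99640000, the value was 7.29 at 0 h and 2.16 at 24 h (-1.53), the lowest of all members. The bin at its start (99650001 to 99660000) had 4.19 and 1.89 (-0.92), and the bin at 99670001 to 99680000 had 10.3 and 5.53 (-0.67). Other low bins lay near Otp, a homeobox gene (5.35 and 1.73, -1.40), over Tgm1, an epidermal transglutaminase (4.62 and 1.61, -1.29), near Cdkn2aip (6.17 and 2.18, -1.28), near BC053393 (11.7 and 4.41, -1.19) and near Tifab (12.9 and 4.87, -1.18). A bin on chromosome 2 (55220001 to 55230000) with no gene end within 100 kb had 10.5 and 3.92 (-1.19).

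The highest relative values came from bins with 2 peaks and mostly low 0 h values. They lay over Rbpjl (2.26 at 0 h and 4.44 at 24 h, 1.20), near Ep300, which encodes p300 (1.93 and 3.67, 1.16), at B3gnt7 (2.63 and 4.82, 1.10), near Mab21l3 (2.15 and 3.95, 1.10), at Igdcc4 (3.66 and 6.53, 1.06) and at Vim (2.98 and 5.31, 1.06). At Olfr697 the value was 6.28 at 0 h and 9.56 at 24 h (0.83), and at Slc29a3 3.94 and 5.98 (0.83). Of these 8 bins, those near Ep300 and at Vim and Slc29a3 held no iPSC H3K27ac peak. Among the largest 0 h values, given by the nearest gene, Brd2, a bromodomain reader of acetylated histones, had 19.4 with 4 KLF4 peaks and 15.3 at 24 h (-0.11), Cdx4 17.99 and 11.7 (-0.39), Trps1 15.8 and 9.20 (-0.56), and Lama5, a laminin chain, 15.4 and 11.004 (-0.26). Irak3 had 16.3 and 13.4 (-0.06), and Ogt, which adds O-linked N-acetylglucosamine to proteins, 15.9 and 11.6 (-0.23).

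Member bins were spread over 1647 genes, of which 178 had 2 or more and 26 had 3 or more, and 43 members had no gene end within 100 kb. Plpp3, a lipid phosphate phosphatase, had 5 members with relative values from -0.32 to 0.29, and Arhgap23 had 4, from -0.26 to 0.04. The other 24 of these 26 genes had 3 each. Among them Ahnak, a very large scaffold protein, ranged from -0.73 to -0.02, Amotl2, a junction-associated angiomotin, from -0.41 to -0.32, Calm2, a calmodulin, from -0.28 to -0.04, and Myo18b from -1.07 to -0.12. Dab2ip ranged from -0.28 to 0.07 and Gnai2, a G-protein subunit, from -0.25 to 0.39. Rgma, a repulsive guidance molecule, was higher throughout, from 0.27 to 0.49.

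Genes of 13 lists on pluripotency, signalling and other cell types were then looked up among the bins that met the criteria, where 8.63% were members. Of the naive pluripotency list, 8 of 91 such bins were members, with a median relative value of -0.20, 1 below -0.5 and none above 0.5. Tfcp2l1 had 11.2 at 0 h and 8.19 at 24 h (-0.23), Klf4 7.32 and 5.08 (-0.30), and Tcl1, a cofactor of AKT signalling, 6.56 and 3.90 (-0.52). Klf5 had 5.17 and 5.29 (0.26), Dppa3 3.61 and 3.47 (0.17), Stat3 7.86 and 7.09 (0.08), Dppa2 7.19 and 5.44 (-0.18) and Pecam1 3.93 and 2.62 (-0.36). In the shared pluripotency list, 5 of 83 bins were members, with a median of -0.31. They lay at Tcf7l1 (12.1 and 8.34, -0.31, and a bin within the gene, 49045 bp from its nearest end, with 0.07), within Etv5 (-0.35), 26093 bp from Mycn (-0.06) and 50774 bp from Jarid2, which encodes a Polycomb cofactor (-0.70).

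The primed or formative list had 4 of 17 bins among members, the 3 of Foxd3 and 1 near Otx2, a head and epiblast homeobox gene (9.01 at 0 h and 7.85 at 24 h, 0.03). The KLF and SP family list, which leaves out Klf2, Klf4 and Klf5 because they stand in the naive list, had 13 of 64, with a median of -0.20. Of these 13, 10 were under 0, where 68.1% of all members were, and they include 2 pairs of adjoining bins that share a value. Klf3, a repressor of the family, had 7.81 and 4.60 (-0.54), Klf10 8.61 and 6.05 (-0.28, in 2 adjoining bins) and Klf9 11.9 and 8.92 (-0.18). Sp1, a ubiquitous GC-box factor, had 7.62 and 6.73 (0.05) in 2 adjoining bins, and Klf13 7.15 and 5.32 (-0.20). Klf12 and Klf1 had -0.41 and -0.22, Klf16 -0.05, and the bins near Sp3 -0.20 and 0.09.

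Targets of LIF and STAT3, the cytokine pathway that sustains mouse ESCs, had 8 of 39 bins among members, with a median of -0.02. Fos, an immediate early gene, had 3.56 and 4.43 (0.54), in a bin with 4 KLF4 peaks, the only one past 0.5 in either direction. Socs3, a feedback inhibitor, had 7.80 and 8.04 (0.27) at its start and -0.14 in a bin 26079 bp away. Pim3, a kinase, had 10.7 and 7.51 (-0.28), and both bins of Bcl3 had 8.71 at 0 h (-0.16 and -0.10).

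In the Wnt list 5 of 28 bins were members with a median of -0.25 and none past 0.5, including Ctnnb1, which encodes beta-catenin (5.51 and 3.95, -0.25), Ccnd1 (-0.34) and Tcf7l2 (0.03). The epithelial list had 5 of 41 and 1 below -0.5, at Jup, which encodes plakoglobin (6.63 and 3.82, -0.57, next to a bin with -0.43), beside Spint1 (0.11) and St14 (-0.15). The TGF-beta and BMP list had 2 of 30 (Skil 0.06, Smad7 -0.28), and the TET and DNA methyltransferase list 2 of 24 (Dnmt1 0.11, Uhrf1 -0.02). The start of Dnmt3l also lay in a member, assigned to another gene by its nearest end, with 4.06 and 1.91 (-0.86). Other list genes with a start in a member assigned elsewhere stood closer to the general median. They were Trim28 (11.4 and 9.11, -0.10), Junb (5.31 and 4.46, -0.03) and Tfeb at a further start (6.64 and 5.37, -0.08). Of the CTCF, cohesin and coactivator list, 1 of 79 was a member, the bin near Ep300. The trophectoderm list had 4 of 37, with Tead4 at -0.77 and -0.25, Tfeb at 0.38 and Gata3 at 0.50. The primitive endoderm list had 1 of 26, 37215 bp from Lamc1 (-0.08). The feeder fibroblast list had 2 of 15, a bin 16721 bp from Fn1 with -0.53 and the bin of Vim with 1.06, and whether feeder cells contribute to these values was not tested. These counts are small, and none was tested for being particular to a list.

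Each bin also carries a whole number, called the bin score here, whose meaning is not stated in the sources used here and which the rule did not use. Its median in members was 7 at 0 h and 6 at 24 h, against 5 and 5 in 1-peak bins and 4 and 4 in KLF4-free bins. Summed over members it was 14226 at 0 h and 12047 at 24 h, so that 45.9% of the total belonged to 24 h, against 46.5% in 1-peak bins and 48.4% in KLF4-free bins. The score was 5 or more lower at 24 h in 118 members (6.22%, 5.18 to 7.40), where 2.68% of all bins were, 3.78% (3.33 to 4.28) of 1-peak bins and 1.33% (1.14 to 1.54) of KLF4-free bins. It was 5 or more higher in 2 members (0.105%, 0.0128 to 0.380), where 0.29% of all bins were. Scores differed in size between the classes, and within 6 groups of bins with like total scores the 24 h share ran from 44.6 to 46.1% in members, from 45.8 to 47.2% in 1-peak bins and from 48.3 to 48.6% in KLF4-free bins. By chromosome, the share in members was under that of KLF4-free bins on 20 of 20.

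**Figure D4:**
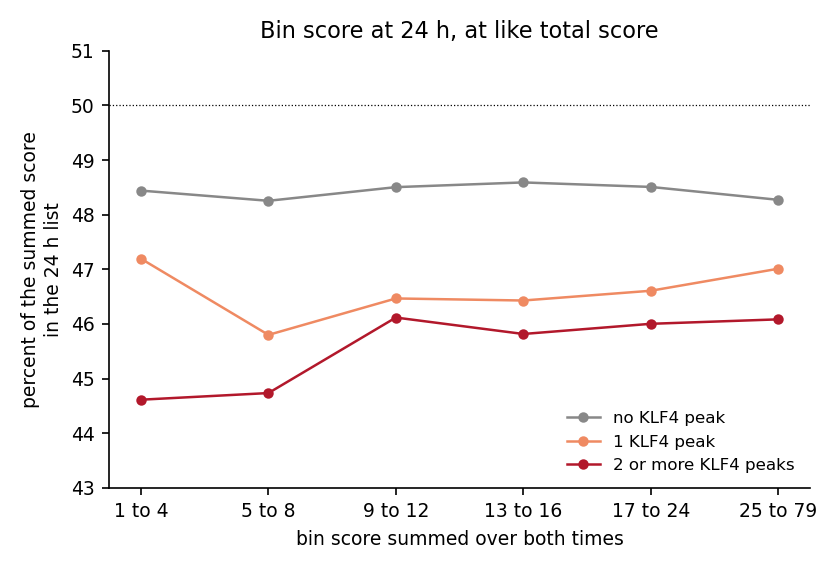
Share of the summed bin score that belongs to 24 h (vertical axis, percent) in 6 groups of bins by total score at both times (horizontal axis), for members (red), 1-peak bins and KLF4-free bins, with a dotted line at an equal share. Members lie between 44.6 and 46.1%, under both other classes in every group.

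The bin with the largest score lay over Dsg2, the desmosomal cadherin desmoglein 2, with 32 at 0 h and 27 at 24 h, at H3K27ac values of 10.4 and 8.95 (relative value 0.01). Eif2b5 had scores of 31 and 19 with values of 8.84 and 5.15 (-0.55), Ubd 28 and 17 with 8.56 and 5.99 (-0.29), and Ehd1, a regulator of endocytic recycling, 29 and 20 with 9.05 and 5.49 (-0.49). Other bins with large scores were those of Ints5 (31 and 27, relative value 0.01) and Ppil1 (29 and 22, -0.01). Ahnak had 29 and 23 (-0.73) in a bin within the gene and 27 and 21 (-0.02) at its start. Tifab had the largest difference, from 22 to 9, and also a relative value of -1.18. Rnf138, a ubiquitin ligase, had 26 and 14 (-0.31), and 2700081O15Rik 15 and 4 (-0.62). In the other direction, a bin on chromosome 16 (30730001 to 30740000) with no gene end within 100 kb had 14 and 23, with values of 4.54 and 6.12 (0.66), and Pacsin1 had 3 and 8 (0.05). Zfp518a had 18 and 22 (0.01), Irf2bp2 10 and 14 (0.33) and Fam174c 6 and 10 (0.01). Of the 228 members with a relative value below -0.5, 186 (81.6%) had a lower score at 24 h, against 54.2% of the other members. Of the 118 members with a score lower by 5 or more, 47 were also below -0.5.

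In iPSCs the members carried H3K27ac more often than 1-peak and KLF4-free bins. An iPSC H3K27ac peak lay in 95.9% (94.95 to 96.8) of members, in 90.3% (89.6 to 91.0) of 1-peak bins and in 70.0% (69.2 to 70.7) of KLF4-free bins, and the median covered length was 2258, 1277.5 and 469 bp. The 258 bins with several KLF4 peaks that were left out for a mark stood above them, with 100% (98.6 to 100) and 6721.5 bp. Of the 4231 KLF4 peaks in members, which are 19.6% of all 21563, 75.04% (73.7 to 76.3) overlapped an H3K27ac peak, against 70.8% (69.7 to 71.9) of those in 1-peak bins and 48.7% of all. Every KLF4 peak was on iPSC H3K27ac in 1124 members (59.3%), and none was in 214 (11.3%). The 214 had lower ESC values, with medians of 4.00 at 0 h and 3.26 at 24 h, and 6.07% (3.27 to 10.2) of them were above 0.5, against 0.979% (0.490 to 1.74) of the 1124.

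The rule puts the KLF4 peaks of a member in 1 bin of 10 kb, which bounds the distance between them. The distance between the centres of neighbouring peaks had a median of 1353.5 bp (quartiles 565 and 3690), and 42.1% were 1 kb or less apart. Peaks in members were of usual width, with a median of 271 bp, against 282 bp in 1-peak bins and 262 bp in all. Members with 2 peaks more than 1 kb apart had a score lower by 5 or more in 7.06% (5.49 to 8.91) of 921 bins, against 3.34% (2.05 to 5.12) of 598 bins with closer peaks. Their scores were also larger at 0 h, and the 24 h share of the summed score was 45.7% and 46.4%. The shares below -0.5 were 13.5% (11.3 to 15.8) and 10.4% (8.04 to 13.1), which overlap. Adjoining members formed 1740 stretches, of which 1601 were 1 bin, 123 were 2 bins, 14 were 3 and 2 were 4. The 4-bin stretches lay on chromosome 10 at 80140001 to 80180000, around Midn, Cirbp and Atp5d (9 peaks, relative values from -0.04 to 0.19), and on chromosome 6 at 86490001 to 86530000, around Pcbp1, an RNA-binding protein (9 peaks, from -0.12 to -0.03).

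Promoters in members were examined for the letters of 4 motifs, both strands. The RefSeq table held 21238 promoters of 300 bases (250 before and 50 after the start), of which 1317 lay in members and 911 of these (69.2%) under a KLF4 peak. The KLF core GGGNGTGG was present in 33.3% (30.2 to 36.4) of the 911, in 21.4% (17.5 to 25.7) of the other 406 and in 19.4% of all promoters. Promoters under the peak of a 1-peak bin held it in 32.3% (30.1 to 34.6), and promoters in KLF4-free bins in 16.4% (15.2 to 17.7). The GC box GGGCGG was present in 84.6% (82.1 to 86.9) of the 911, 55.7% of the 406, 82.9% under the peak of 1-peak bins and 46.2% of all promoters. Of the 5089 core matches, 5.11% overlapped a GC box. The octamer ATGCAAAT of OCT4 was present in 1.43% of the 911 and 1.66% of all promoters, and the ESRRB element TCAAGGTCA in 0.110% and 0.334%.

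**Figure D5:**
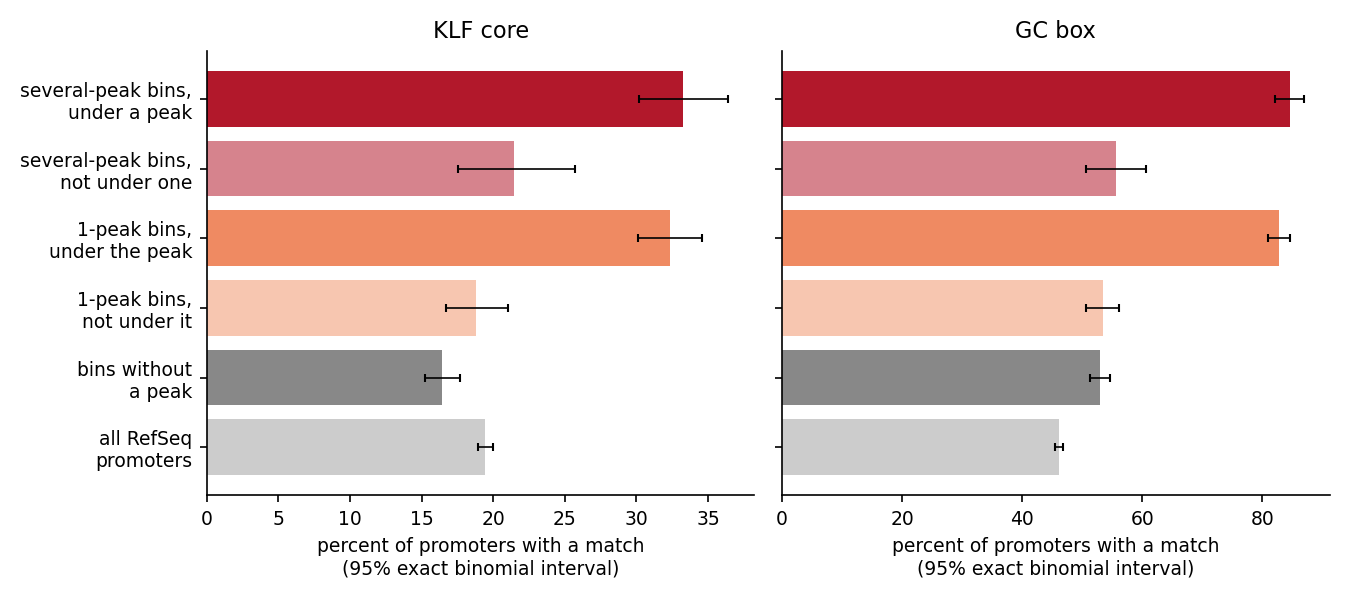
Percent of promoters (300 bases around a RefSeq start) holding the KLF core or the GC box on either strand, by bin class and by whether a KLF4 peak lies over the promoter, with 95% exact binomial intervals. Promoters under a KLF4 peak hold the core in 33.3% in members and 32.3% in 1-peak bins, against 16.4% in KLF4-free bins.

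Base composition moved with these shares. The median GC content was 65.7% in the 911 promoters under a KLF4 peak, 59.0% in the 406 others and 56.3% in all. With all promoters cut into 5 equal groups by GC content, in the highest group the core was present in 34.4% of 413 promoters under a KLF4 peak in members and in 22.5% of 677 in KLF4-free bins, and in the next group in 36.9% of 282 and 18.4% of 803. All promoters of these GC groups held it in 29.0% and 26.5%, so the distance to all promoters was smaller at like GC content. The GC box was present in 96.1% and 84.8% of the members' promoters under a KLF4 peak in these groups, against 89.8% and 74.0% of all promoters. The median relative H3K27ac value was -0.06 in the 706 members with a promoter under a KLF4 peak and -0.09 in the 188 members with promoters of which none was.

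Bins of several core pluripotency genes are not members because they carry a mark in column 6 or 9. The bins left out for a mark were 258 bins with several KLF4 peaks and a value at both times, with medians of 10.3 at 0 h and 7.97 at 24 h and a median relative value of -0.16. None of them was above 0.5, and 12.02% (8.31 to 16.6) were below -0.5, as in members (12.02%). A score lower by 5 or more at 24 h was found in 14.7% (10.6 to 19.7). Their scores were larger, with a median of 14 at 0 h against 7 in members. The 24 h share of the summed score was 46.5%, against 45.9% in members. By nearest gene end they included 4 bins of Esrrb and 4 of Tbx3, and bins of Nanog, Pou5f1, Sox2, Zfp42, Klf2, Prdm14, Fgf4 and Tdgf1. Of these 258 bins, 40 (15.5%) were assigned to a gene of the 13 lists, against 57 members (3.00%). Among members, a mark in column 5 was found in 9.38%, against 4.15% of 1-peak bins and 3.05% of KLF4-free bins, and the meaning of the marks is not stated.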

How the data were processed

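The 4 deposited lists cover the ChIP groups of 12 samples. Bowtie2, SAMtools, bedtools and MACS2 and the build mm10 are named per the submitters' processing notes, without versions or roles. The sources used here do not say how the authors combined the 2 replicates of a group, so p-values between the times were not computed. The deposited ESC lists hold, per 10 kb bin, a whole-number bin score (column 4), marks of 0, 1 or 2 (columns 5 to 9) and an H3K27ac signal (column 10), whose normalization is not stated either. The deposited iPSC lists hold peak positions only. No column was left unmapped.

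From these were computed peak counts per bin (overlap of 1 bp or more), relative log2 values, calls at 0.5 (log2) and at 5 (score), and exact binomial intervals, with Python 3.11.15, pandas 2.3.3 and scipy 1.17.1. The counting steps were tested on simulated data. Genes and promoters came from RefSeq for GRCm38.p6, the primary assembly of mm10, matched by position. A bin was called by the gene whose end lay nearest, up to 100 kb away. The members, lists and measures were chosen with earlier results of these data known. Named bins were the members with the most peaks (10), the lowest and highest relative values (8 each), the highest 0 h values (8), the largest scores (8) and the largest score differences (5 each way), and up to 5 per gene list, with the 10 genes holding most members; beyond 5 per list, further members were named after their values were seen. An item that these rules name is not reported here. Alternatives changed the definition of a member, the zero, the call, the runs of equal values and the chromosomes.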

Additional observations from a re-analysis of the deposited data

How the results depend on the processing

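No paired analysis was possible because each group was deposited as 1 list without replicates. Of 86 alternative values for 12 results, 47 stayed within the counting interval or within 1.5 times of the reported value and 39 did not. Only the median relative value and the gene start difference have a sign, and both kept it in the alternatives run. The comparisons with 1-peak and KLF4-free bins were not rerun under these alternatives. With KLF4 peaks 500 bp or less apart merged, the median relative value was -0.12, 70.3% of KLF4 peaks were on iPSC H3K27ac, 61.3% of bins had a gene end near and 45.6% a gene start, and the median distance was 2928 bp. With 3 or more KLF4 peaks there were 378 bins, 1.06% above 0.5, a gene start difference of 1.13 points, 8.73% with a score lower by 5 or more, 96.8% with an iPSC H3K27ac peak, 79.0% of KLF4 peaks on one, 73.5% with a gene end near, 56.5% with a start and a distance of 1129 bp. With peaks of median width or wider there were 638 bins, a median of -0.12, a gene start difference of 6.54 points, and 97.3%, 84.9%, 67.7%, 52.0% and 1484.5 bp for those last 5 measures. With marked bins kept, 77.8% of KLF4 peaks were on H3K27ac, 61.2% of bins had a gene end near and 45.4% a start. As deposited, the median was -0.33, with 28.1% below -0.5, 0.685% above 0.5 and a gene start difference of 17.1 points. With 0 at the median of KLF4-free bins these were -0.17, 14.5% and 1.27%. A call at 0.3 gave 24.8% below, 4.96% above and 16.5 points, and a call at 1 gave 1.42%, 0.316% and 2.64 points. A gene end within 5 kb was found for 69.1%. The depth is unknown, so the limit it sets cannot be given.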
